A study of Mus musculus with 6 samples.

Results

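Nuclear receptors are transcription factors that bind DNA next to the genes they control and change their output when a ligand or a partner protein binds them. This account covers 41 nuclear receptors of mouse liver that were listed by gene symbol, with no threshold on their values. Of these, 39 lay on probe sets that name a single gene, out of 18193 genes measured that way, and each gene was read from its brightest such probe set over the 6 arrays. Nr1h2, which encodes LXR beta, and Nr2e3, an orphan receptor known from the retina, had no single-gene probe set and were not analysed here. Levels are log2 values made by RMA, a method that corrects, normalises and summarises the probes of an Affymetrix array, so a difference of 1 is a 2-fold change. A probe set whose mean over the 6 arrays did not exceed the mean of the array medians, 5.62, is called dim, because such a level was not shown to lie above background.

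The livers came from male C57BL/6J mice aged 8 weeks, on 6 arrays in 3 groups of 2: wild-type mice with chow available, wild-type mice without food for 24 h, and Cnot3+/- mice without food for 24 h. Fasted animals were caged singly, and the arrays of a group are labelled as biological replicates. The product of Cnot3 belongs to CCR4-NOT, the main complex that removes poly(A) tails from mRNAs. No fed Cnot3+/- group was among the samples, so genotype was compared after fasting only. Cnot3 itself read 9.45 and 9.60 in fed wild-type, 9.27 and 9.32 in fasted wild-type and 9.40 and 9.16 in fasted Cnot3+/- liver. The fasted genotypes overlapped, with a difference of -0.01 (SE 0.13, limma adjusted p = 0.993). Which segment of Cnot3 was deleted is not stated in the sources used here, and a probe set outside it would check nothing, so the genotype is used as labelled. A group is called different at an adjusted p under 0.05 from limma with Benjamini-Hochberg adjustment over all 18193 genes, and with 2 arrays a group the test rests on a small spread estimate. In bulk liver, fewer cells of a type and less RNA per cell cannot be told apart. Of the 7 measured hepatocyte markers, none was at or under the array medians and none passed the fasting test. Their means ran from 13.53 (Apob) to 15.20 (Alb), and whether probe sets that bright can show a change was not tested. All 3 measured exocrine pancreas markers were at or under the array medians.

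In liver these receptors couple gene output to nutrients. PPAR alpha binds fatty acids and drives their oxidation, LXR alpha binds oxysterols and drives lipid synthesis, CAR and PXR respond to foreign compounds and bile components, thyroid hormone and retinoic acid receptors bind their hormones, and HNF4 alpha maintains the hepatocyte programme. Many of them bind DNA only as a pair with a retinoid X receptor (RXR). Fasting changes the supply of several of these ligands, and it also changes some receptor mRNAs.

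Most receptor mRNAs did not pass the test after 24 h without food. Among the 39 measured receptors, 2 were called between fasted and fed wild-type liver (5.13%), against 5.02% of all genes. Nr1i3 (CAR) rose, as 1.87% of all genes did, and Rarb (retinoic acid receptor beta) fell, as 3.15% of all genes did. The share of receptors called was therefore near that of the whole array. The 2 groups did not overlap for 20 receptors (51.3%), beside 50.8% of all genes. The median difference was 0.03 over the receptors and 0.02 over all genes, and the median size of a difference was 0.149 and 0.155. No measured receptor difference reached 2-fold, and the differences ran from -0.76 (Nr6a1) to 0.86 (Nr1i3). An unadjusted p under 0.05 was found for 10 receptors (25.6%) and for 18.9% of all genes.

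**Figure D1:**
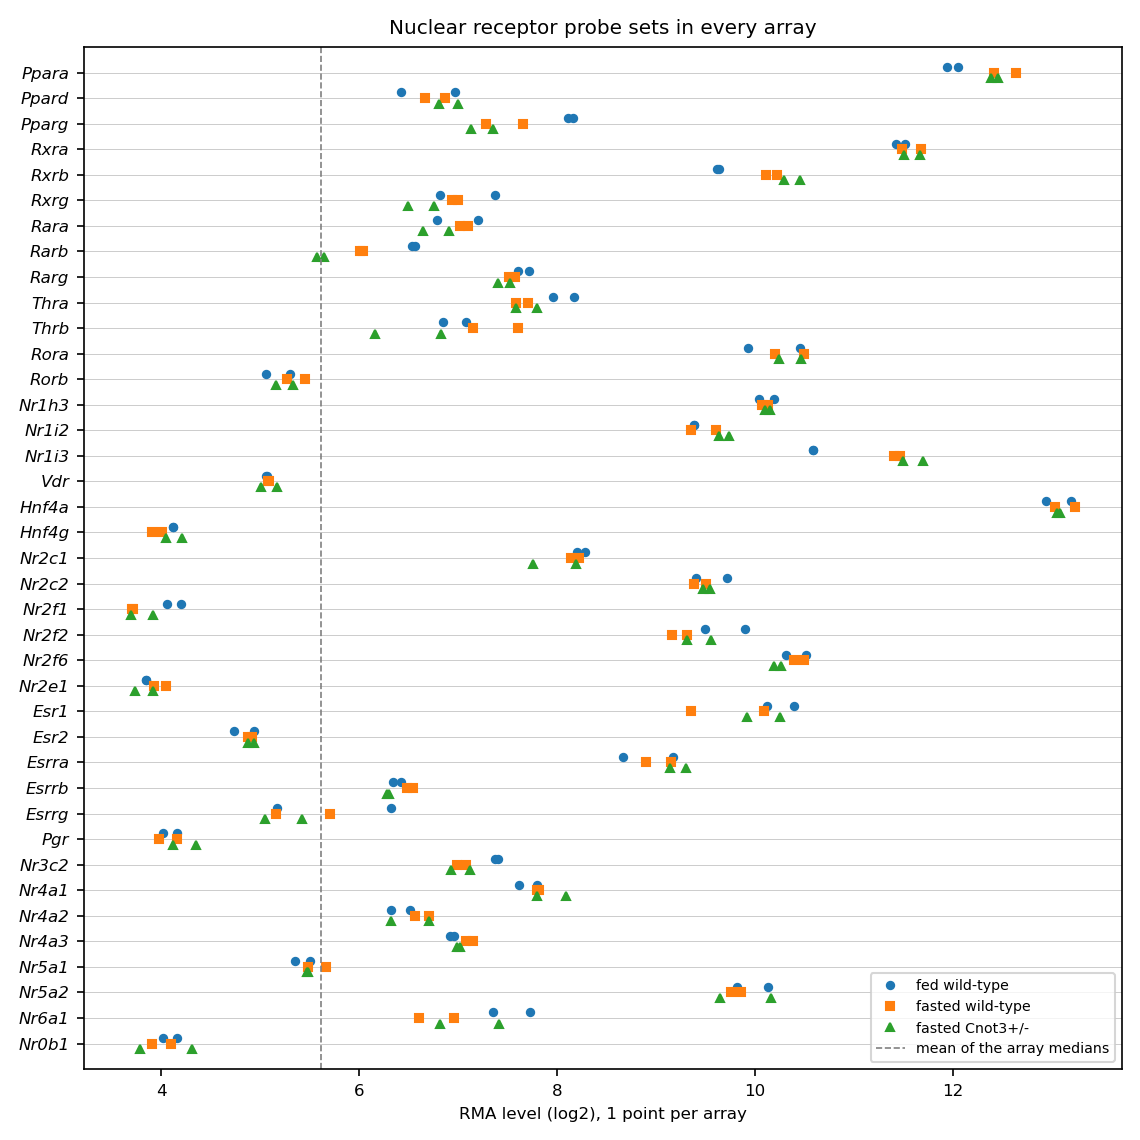
RMA log2 level (x axis) of each of the 39 measured receptors (rows) on each of the 6 arrays: circles are fed wild-type, squares fasted wild-type and triangles fasted Cnot3+/-. The dashed line is the mean of the array medians, 5.62, with 10 dim receptors at or to the left of it by their mean; levels of different probe sets cannot be compared with each other.

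Promoter sequence is shown for the receptors that passed the fasting test, since those are the members the fasting result turns on. Both stretches are from RefSeq (GRCm38.p6), written 5′ to 3′ in the direction of transcription. For Rarb the 250 bases before the start are chr14:16575477-16575726 on the minus strand. The capitals mark a direct repeat at -53 to -37 from the start, in which the site GGTTCA is followed, after 5 spacer bases, by the similar site AGTTCA; this is the known retinoic acid response element through which retinoic acid raises this gene.
Rarb: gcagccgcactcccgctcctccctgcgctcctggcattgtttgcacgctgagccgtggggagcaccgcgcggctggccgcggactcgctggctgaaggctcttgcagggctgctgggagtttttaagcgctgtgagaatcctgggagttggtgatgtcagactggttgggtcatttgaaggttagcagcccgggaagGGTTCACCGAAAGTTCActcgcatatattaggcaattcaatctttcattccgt
For Nr1i3 the stretch shown is chr1:171213720-171213933 on the plus strand, cut off where the annotated gene begins. The capitals mark the E-box CACGTG, a motif bound by helix-loop-helix factors. It lies at -244 to -239 from the start used in the motif search. That start is beyond the end of the stretch shown, inside the gene as annotated.
Nr1i3: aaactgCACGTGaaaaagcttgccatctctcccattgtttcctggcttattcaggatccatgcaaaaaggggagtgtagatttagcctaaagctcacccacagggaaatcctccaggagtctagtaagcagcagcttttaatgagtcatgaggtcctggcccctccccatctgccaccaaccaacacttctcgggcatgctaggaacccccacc
A direct repeat of this kind was searched on both strands in the 250 bases before each start, a search chosen after values were seen. Each of its sites could be the consensus AGGTCA or a close variant. The variants accepted were GGGTCA and, as in the Rarb promoter shown above, the sites AGTTCA and, at the other end of that repeat, GGTTCA. It was found in 1 of the 38 receptors with a RefSeq entry, Rarb (2.63%), and in 28 of 27025 genes with an entry (0.104%). Because the sites of Rarb itself were among those accepted, its match was fixed in advance, and these shares test nothing about the receptors. The same sites 1 to 4 bases apart were found in none of the 38. CACGTG was found in 4 of the 38 (10.5%) and in 6.86% of all genes, the site AGGTCA in 8 (21.1%) and 15.8%, and the GC box GGGCGG in 21 (55.3%) and 35.4%. The cAMP response element TGACGTCA was in 1 receptor (2.63%; all genes 1.77%), the forkhead motif GTAAACA in 2 (5.26%; 3.54%) and TATAAA in 7 (18.4%; 14.3%). A gene was counted if any of its starts matched. The 38 receptors had 59 starts and the 27025 genes 32851, so more sequence was searched per receptor, which can raise the receptor shares. A match describes letters in the window and does not show that a factor binds there.

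Among the receptors for foreign compounds, Nr1i3 was the member that rose. Nr1i3, the constitutive androstane receptor that induces Cyp2b enzymes, read 10.58 and 10.58 in fed liver, 11.41 and 11.47 in fasted wild-type liver, and 11.49 and 11.70 in fasted Cnot3+/- liver. The fed arrays were the lowest, and no fed value overlapped a fasted value of either genotype. Fasting raised it by 0.86 (SE 0.12, adjusted p = 0.0125), a 1.81-fold difference. Its 1 single-gene probe set is of a type that can match several transcripts of the gene. The call was lost when any 1 of the 4 wild-type arrays was left out: adjusted p was 0.0581 without fed array 1, 0.0688 without fed array 2, 0.0978 without fasted array 1 and 0.0944 without fasted array 2. Nr1i2 (PXR), its close relative, read 9.38 and 9.38, then 9.36 and 9.60, then 9.63 and 9.73. Its fasted wild-type values spanned the fed ones, and the difference of 0.10 did not pass (interval -0.21 to 0.40). Vdr, the vitamin D receptor of the same branch, was dim.

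Genes known to answer to CAR and PXR did not move with Nr1i3 as a list. Of 11 measured, 0 rose and 2 fell after fasting, with a median of -0.24. Of the 11, 2 had positive differences and 2 were at or under the array medians. The 2 that fell were the cytochromes Cyp2c29 (by 1.33 on the log2 scale, SE 0.21, adjusted p = 0.0177) and Cyp2c55. Cyp2c55 read 7.67 and 8.62 in fed and 5.05 and 5.27 in fasted wild-type liver, and because the fasted levels were under the array medians the difference of -2.98 (SE 0.29, adjusted p = 0.00386) is a lower bound on its size. Without either fasted array 1 of these 2 calls was left. Cyp2b9 came next by p and did not pass (adjusted p = 0.0723); its fasted values, 4.33 and 4.47, were also under the array medians, so its difference of -1.75 is again a bound. Cyp2b10, the usual CAR target, was named after its values were seen: it read 8.32 and 9.26 in fed and 8.96 and 9.58 in fasted wild-type liver, groups that overlapped (0.48, SE 0.33, adjusted p = 0.507).

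Among the retinoid receptors, Rarb was the member that fell. Rarb, which both senses retinoic acid and is induced by it, read 6.56 and 6.53 in fed liver, 6.01 and 6.03 in fasted wild-type liver, and 5.57 and 5.64 in fasted Cnot3+/- liver. The 3 groups followed one another downwards without overlap. Fasting lowered it by 0.52 on the log2 scale (SE 0.11, adjusted p = 0.0456), a 1.44-fold difference close to the threshold. The call was lost in all 6 fits that left out 1 array, with adjusted p from 0.0537 to 0.233. Rara read 6.78 and 7.20, 7.02 and 7.10, and 6.65 and 6.91, and its fasting difference of 0.07 did not pass. Rarg, the remaining receptor of this kind, differed by -0.12 (interval -0.40 to 0.16).

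The other genes known to answer to retinoic acid included 1 large fall. Of 7 measured, 0 rose and 1 fell after fasting, with a median of -0.21. Cyp26a1, which breaks down retinoic acid and is induced by it, read 11.00 and 9.96 in fed, 7.27 and 6.79 in fasted wild-type and 8.06 and 6.87 in fasted Cnot3+/- liver. Every fasted value lay well below the fed ones, with a fasting difference of -3.45 (SE 0.45, adjusted p = 0.00872). That call was lost without either fasted wild-type array. Cyp26b1 (0.51, adjusted p = 0.119) did not pass. Of the 7, Stra6 and Crabp2 were at or under the array medians by their means; Crabp2, a retinoic acid carrier, did not pass (adjusted p = 0.135) and is given no size, since its values were not shown to lie above background.

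Markers of stellate cells, which store vitamin A, were among the cell type markers that changed in the same comparison as Rarb. Of 12 stellate and fibroblast markers, 4 fell (Lrat, Col3a1, Col1a1 and Tagln) and Dcn rose after fasting. Fewer of these falls were called when any 1 of the 4 wild-type arrays was left out, and the Dcn call was lost each time. Col1a1 was the 1 marker of the 12 at or under the array medians, at 5.43 and 5.40 in fed and 4.74 and 4.79 in fasted wild-type liver, so its call rests on values not shown to lie above background. Lrat, the enzyme that esterifies retinol in these cells, read 8.74 and 8.55 in fed and 7.50 and 7.38 in fasted wild-type liver (difference -1.20, SE 0.13, adjusted p = 0.00497). The mean log2 level of the list was 7.99 to 8.07 on fed, 7.58 to 7.64 on fasted wild-type and 7.57 to 7.79 on fasted Cnot3+/- arrays. The sum of its linear levels moved the other way, from 6213 to 6440 on fed arrays to 6506 to 6950 on fasted wild-type arrays, and was 6557 to 7753 on fasted Cnot3+/- arrays. Dcn, the brightest marker of the list, weighs most in that sum. Its levels were 11.24 and 11.25 in fed and 11.87 and 11.84 in fasted wild-type liver. Other cell type markers also differed after fasting: 13 of 13 macrophage and Kupffer cell markers were higher, none called, with a median of 0.41, and of 10 endothelial markers Lyve1 rose (1.58, adjusted p = 0.00456). The Lyve1 call was lost without fasted wild-type array 1. The part of these markers in the fasting results was not tested.

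No RXR gene passed the fasting test; RXRs are the partners of most receptors above. Rxrb read 9.62 and 9.63 in fed, 10.22 and 10.11 in fasted wild-type and 10.45 and 10.29 in fasted Cnot3+/- liver. The 3 groups stepped upwards without overlap, but the fasting difference of 0.54 (SE 0.12, adjusted p = 0.0535) did not pass. Rxra, the form known as the main one in hepatocytes, read 11.51 and 11.43, then 11.67 and 11.48, then 11.67 and 11.51. Its groups overlapped on the brightest probe set, where the difference was 0.11 (interval -0.20 to 0.42). Another Rxra probe set above the array medians differed by 0.59 (SE 0.24), so the size depended on the probe set. Rxrg, best known from muscle and brain, read 6.81 and 7.37 in fed and 6.93 and 7.00 in fasted wild-type liver, and its difference of -0.13 did not pass.

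**Figure D2:**
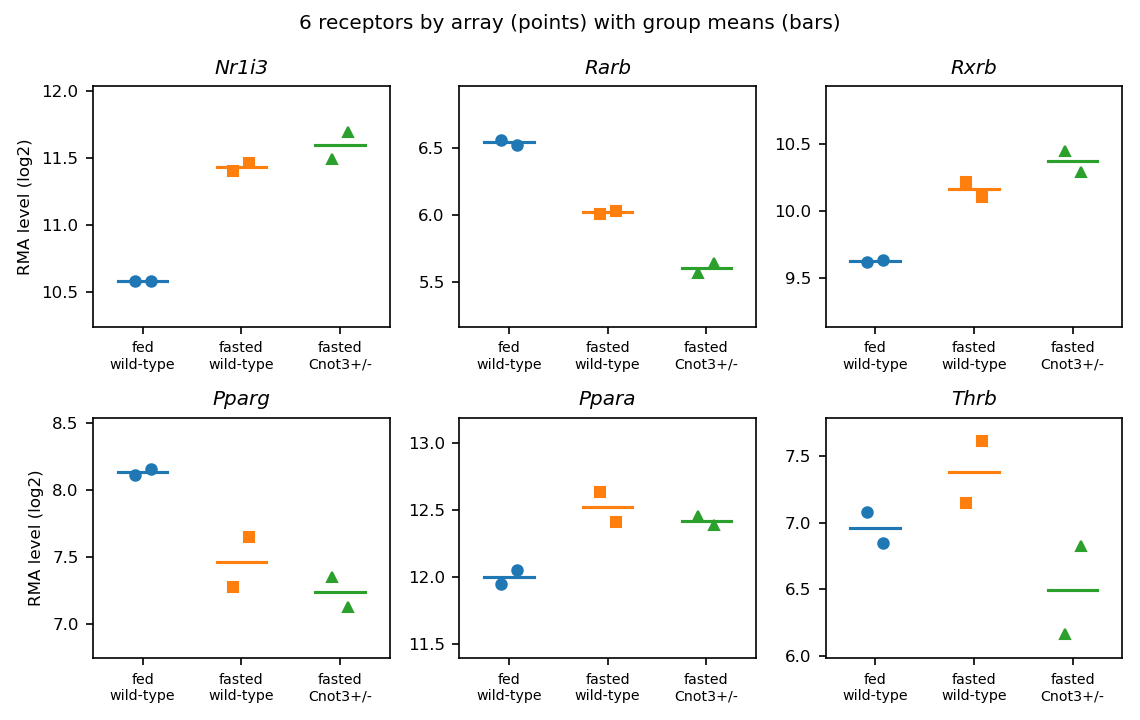
RMA log2 level (y axis) of 6 receptors on each array (points) with the group mean (bars), by group along the x axis: Nr1i3, Rarb, Rxrb and Pparg are those called in at least 1 comparison, shown with Ppara and Thrb. Nr1i3 and Rxrb step upwards and Rarb downwards from fed through fasted wild-type to fasted Cnot3+/- without overlap.

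The PPAR genes pointed in different directions after fasting, and none passed the test. Ppara, the fatty acid sensor that drives oxidation and ketogenesis, read 11.94 and 12.05 in fed and 12.64 and 12.41 in fasted wild-type liver. Its fasted values lay above the fed ones, at a difference of 0.53 (SE 0.13, adjusted p = 0.0681, 1.44-fold). All 3 of its probe sets were above the array medians and had positive differences, from 0.45 to 0.53. When the spread was allowed to follow the level, adjusted p was 0.0402, so its call depends on how the spread was modelled. Pparg, which favours fat storage, read 8.11 and 8.16 in fed and 7.28 and 7.65 in fasted wild-type liver. It lay lower after fasting without overlap (-0.67, SE 0.16, adjusted p = 0.0627). Ppard, the widely expressed form, read 6.42 and 6.96 in fed and 6.87 and 6.66 in fasted wild-type liver and differed by 0.07 (interval -0.39 to 0.53).

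Most measured genes known to answer to PPAR alpha rose after fasting. Of 15 measured, 10 rose and 0 fell after fasting, with a median difference of 1.35 beside 0.02 over all genes. Acot1, an acyl-CoA thioesterase, read 9.21 and 9.75 in fed and 12.12 and 11.85 in fasted wild-type liver (difference 2.51, SE 0.19, adjusted p = 0.00215). Cpt1a, which lets long-chain fatty acids into mitochondria, read 12.19 and 12.09 in fed and 13.49 and 13.67 in fasted wild-type liver (1.44, adjusted p = 0.00377). Acot2, the mitochondrial thioesterase, differed by 1.74 (adjusted p = 0.00512). The count of 10 was 4 without fasted array 1, 4 without fasted array 2, 6 without fed array 1 and 8 without fed array 2. Of 9 lipid storage genes linked to PPAR gamma, 1 rose and 0 fell, and 3 of the 9 were at or under the array medians. Positive differences were found for 8 of the 9, with a median of 0.29. The 1 that rose was Cidec, a lipid droplet protein, at 4.83 and 5.87 in fed and 10.72 and 11.58 in fasted wild-type liver. Its fed mean was under the array medians, so the difference of 5.80 (SE 0.52, adjusted p = 0.00308) is a lower bound. Plin4, also a droplet protein, did not pass (1.18, adjusted p = 0.0947). Neither did the adipocyte hormone Adipoq (adjusted p = 0.108), whose wild-type values of 3.88 to 4.72 were all under the array medians.

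**Figure D3:**
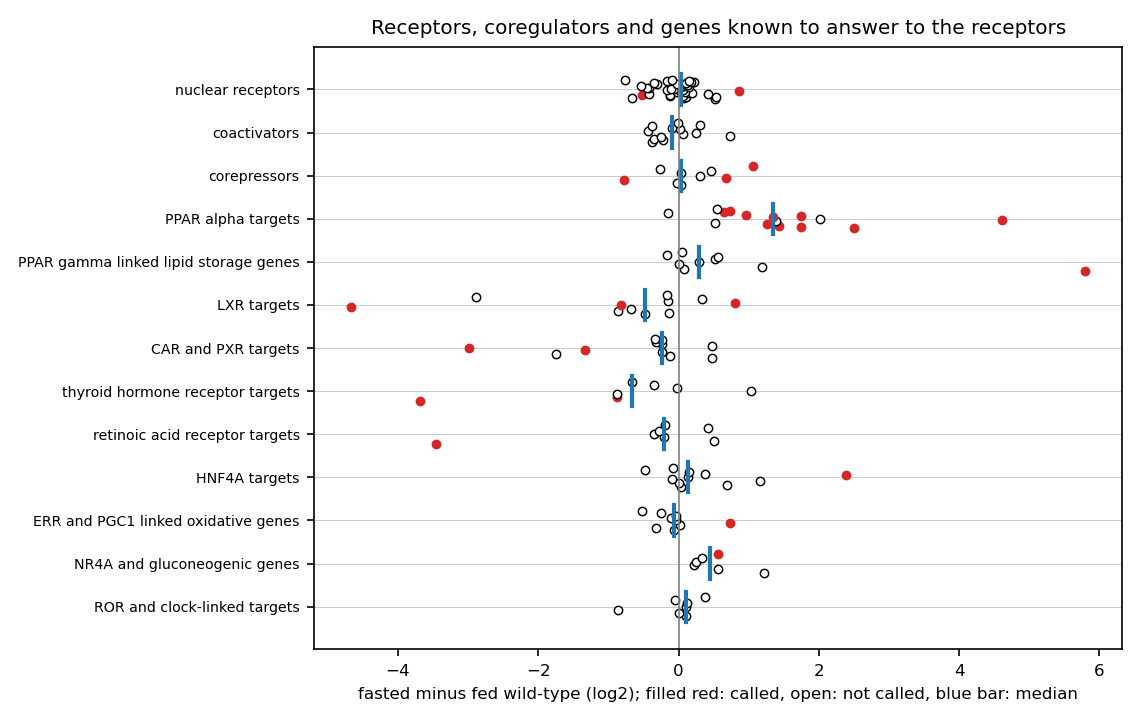
Fasted minus fed wild-type difference (log2, x axis) of each measured gene (points) in the receptors, their coregulators and the lists of genes known to answer to them (rows). Filled red points were called, open points were not, and blue bars are medians: the PPAR alpha row has its median at 1.35 and the receptor row at 0.03.

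Nr1h3, the gene of LXR alpha, was level across the 6 arrays, which read 10.04 and 10.19, 10.07 and 10.13, and 10.10 and 10.15. Its fasting difference was -0.02 (interval -0.30 to 0.26). Of 11 LXR targets, 1 rose and 2 fell after fasting, with a median of -0.48. Srebf1, the regulator of fatty acid synthesis, read 13.03 and 13.51 in fed and 8.46 and 8.74 in fasted wild-type liver (-4.67, SE 0.19, adjusted p = 0.000251). Scd1, a desaturase, fell by 0.82 on the log2 scale (adjusted p = 0.0288), and Mylip, which degrades the LDL receptor, rose by 0.81 (adjusted p = 0.0275). The Mylip call was lost when any 1 of the 4 wild-type arrays was left out, and of the 2 falls 1 was left without fasted array 1 or fed array 1.

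The thyroid hormone receptors did not pass the fasting test. Thra read 7.96 and 8.17 in fed, 7.58 and 7.70 in fasted wild-type and 7.80 and 7.58 in fasted Cnot3+/- liver. Its fed values were the highest (-0.42, SE 0.14, adjusted p = 0.156), but only 1 of its 3 probe sets above the array medians had a positive difference and their range ran from -0.42 to 0.26. Thrb, the form known as the main one in liver, read 7.08 and 6.85 in fed and 7.15 and 7.61 in fasted wild-type liver (0.42, adjusted p = 0.432). Of 7 genes known to answer to thyroid hormone, 0 rose and 2 fell, with a median of -0.66. Thrsp, a lipogenic gene, read 14.87 and 14.85 in fed and 11.39 and 10.97 in fasted wild-type liver (-3.68, SE 0.16, adjusted p = 0.000251). Dio1, which activates thyroid hormone, fell by 0.87 on the log2 scale (adjusted p = 0.0148), and Klf9 did not pass (1.03, adjusted p = 0.055). Of the 2 falls 1 was left without fasted array 1, without fasted array 2 and without fed array 2.

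HNF4 alpha and the orphan receptors of the NR2 branch did not pass. Hnf4a read 13.19 and 12.94 in fed, 13.23 and 13.03 in fasted wild-type and 13.08 and 13.05 in fasted Cnot3+/- liver, with overlapping groups and a fasting difference of 0.07 (interval -0.26 to 0.39). Its 4 probe sets had positive fasting differences that ranged from 0.07 to 0.81, so the size depended on the probe set. Of 11 HNF4 alpha targets 1 rose and 0 fell: Cyp8b1, a sterol hydroxylase of bile acid synthesis, read 10.85 and 10.97 in fed and 13.20 and 13.38 in fasted wild-type liver (2.38, SE 0.13, adjusted p = 0.000584). Otc, of the urea cycle (-0.47, adjusted p = 0.142), and Apob (0.69, adjusted p = 0.156) did not pass. Of the 11, 8 had positive differences, with a median of 0.14. Apoa2, Serpina1b, Ttr and Apoc3 of this list were very bright, at means of 15.09, 15.01, 14.99 and 14.78. Whether probe sets that bright can show a change was not tested. Nr2f2 (COUP-TFII), which is also found in stellate and endothelial cells, read 9.49 and 9.89 in fed and 9.31 and 9.16 in fasted wild-type liver. It lay lower without overlap (-0.46, SE 0.17, adjusted p = 0.201), and its 4 probe sets above the array medians were negative, from -0.70 to -0.29. Nr2c1, Nr2c2 and Nr2f6, which mostly act as repressors, differed by -0.06, -0.11 and 0.03. Hnf4g, Nr2f1 (COUP-TFI) and Nr2e1, a receptor of neural stem cells, were dim.

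Rora, which activates clock genes, differed by 0.15, with overlapping groups, and 6 of its 9 probe sets were positive. Of 7 genes linked to ROR and the clock, 0 rose and 0 fell, and Cyp7b1 (-0.86, adjusted p = 0.0843), Clock (0.38) and Nr1d2 (0.12) had the smallest p. Rorb was dim. Esr1, the estrogen receptor, read 10.12 and 10.39 in fed, 9.35 and 10.09 in fasted wild-type and 9.92 and 10.25 in fasted Cnot3+/- liver. Its lowest value was fasted wild-type array 1, and the difference of -0.54 (SE 0.25, adjusted p = 0.31) did not pass. Nr3c2, the mineralocorticoid receptor, read 7.37 and 7.40 in fed and 6.98 and 7.08 in fasted wild-type liver, lower without overlap but not called (-0.36, adjusted p = 0.172). Esr2 and Pgr, the progesterone receptor, were dim.

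The estrogen-related receptors, which drive mitochondrial genes with the coactivator PGC1 alpha, did not pass. Esrra read 8.67 and 9.17 in fed and 9.15 and 8.89 in fasted wild-type liver (0.10, interval -0.34 to 0.55), and Esrrb differed by 0.13. Esrrg was dim, with 1 fed array at 6.32 and the other at 5.17, a larger gap than between its groups. Ppargc1a, the gene of PGC1 alpha, read 8.27 and 6.70 in fed, 7.64 and 8.81 in fasted wild-type and 9.28 and 9.32 in fasted Cnot3+/- liver. Its wild-type groups overlapped (0.74, SE 0.53, adjusted p = 0.528), while both Cnot3+/- values were above every wild-type value without passing the test (genotype difference 1.07, adjusted p = 0.863). Of 9 oxidative genes linked to these receptors 1 rose and 0 fell: Acadm, of fatty acid oxidation (0.74, SE 0.12, adjusted p = 0.0195). Cs (-0.53, adjusted p = 0.0654) and Sdhb (-0.25, adjusted p = 0.295), of the citric acid cycle, did not pass.

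The NR4A receptors, early response genes that glucagon and cAMP can induce, read close to their fed levels at 24 h. Nr4a1 read 7.79 and 7.62 in fed and 7.80 and 7.81 in fasted wild-type liver (0.10, interval -0.23 to 0.44). Nr4a2 differed by 0.21 and Nr4a3 by 0.18, both without overlap of the groups and without passing. Of 6 gluconeogenic genes 1 rose and 0 fell: Pcx, pyruvate carboxylase (0.56, SE 0.12, adjusted p = 0.0402). All 6 had positive differences, with a median of 0.45. Eno3 (0.33, adjusted p = 0.316) and Pck1, whose fed arrays read 13.93 and 11.74 (1.22, adjusted p = 0.326), did not pass. Acadm, which is also among the PPAR alpha targets, and Pcx and Cyp26a1 were each the only call of a list, and without either fasted wild-type array none of the 3 was called. Acadm was also lost without either fed array, and Pcx without fed array 2.

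Nr6a1, an orphan receptor known from embryos and germ cells, had the lowest fasting difference among the receptors and was not called. It read 7.73 and 7.35 in fed, 6.95 and 6.61 in fasted wild-type and 7.41 and 6.82 in fasted Cnot3+/- liver (-0.76, SE 0.23, adjusted p = 0.132). The wild-type groups did not overlap, but its 3 probe sets above the array medians ran from -0.76 to 0.07. Nr5a2 (LRH-1), which activates bile acid synthesis genes, read 10.13 and 9.82 in fed and 9.85 and 9.76 in fasted wild-type liver (-0.17, interval -0.63 to 0.29). Nr5a1, the steroidogenic factor of adrenal and gonad, and Nr0b1, its repressor there, were dim. The dim receptors numbered 10 in all, and none was called in any comparison. Nr5a1, at a mean of 5.49, was the closest under the line and Rarb, at 6.06, the closest above it.

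Receptors act on transcription through coactivators and corepressors. Of 13 coactivators 0 rose and 0 fell after fasting, with a median of -0.10. Med24 (-0.43, adjusted p = 0.157), Ncoa1 (-0.38, adjusted p = 0.195) and Ncoa3 (-0.35, adjusted p = 0.199) had the smallest p. Of 9 corepressors 2 rose and 1 fell, with a median of 0.04. Nr0b2 (SHP), itself an orphan receptor that represses other receptors, read 9.81 and 9.93 in fed, 10.75 and 11.12 in fasted wild-type and 10.45 and 10.29 in fasted Cnot3+/- liver (fasting 1.07, SE 0.16, adjusted p = 0.0134). The related subunits of the NCoR complex went opposite ways: Tbl1x fell by 0.77 on the log2 scale (adjusted p = 0.0158) and Tbl1xr1 rose by 0.68 (adjusted p = 0.0206). Without fasted array 1 only 1 of these 3 was called, and without fasted array 2, fed array 1 or fed array 2 none was.

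**Figure D4:**
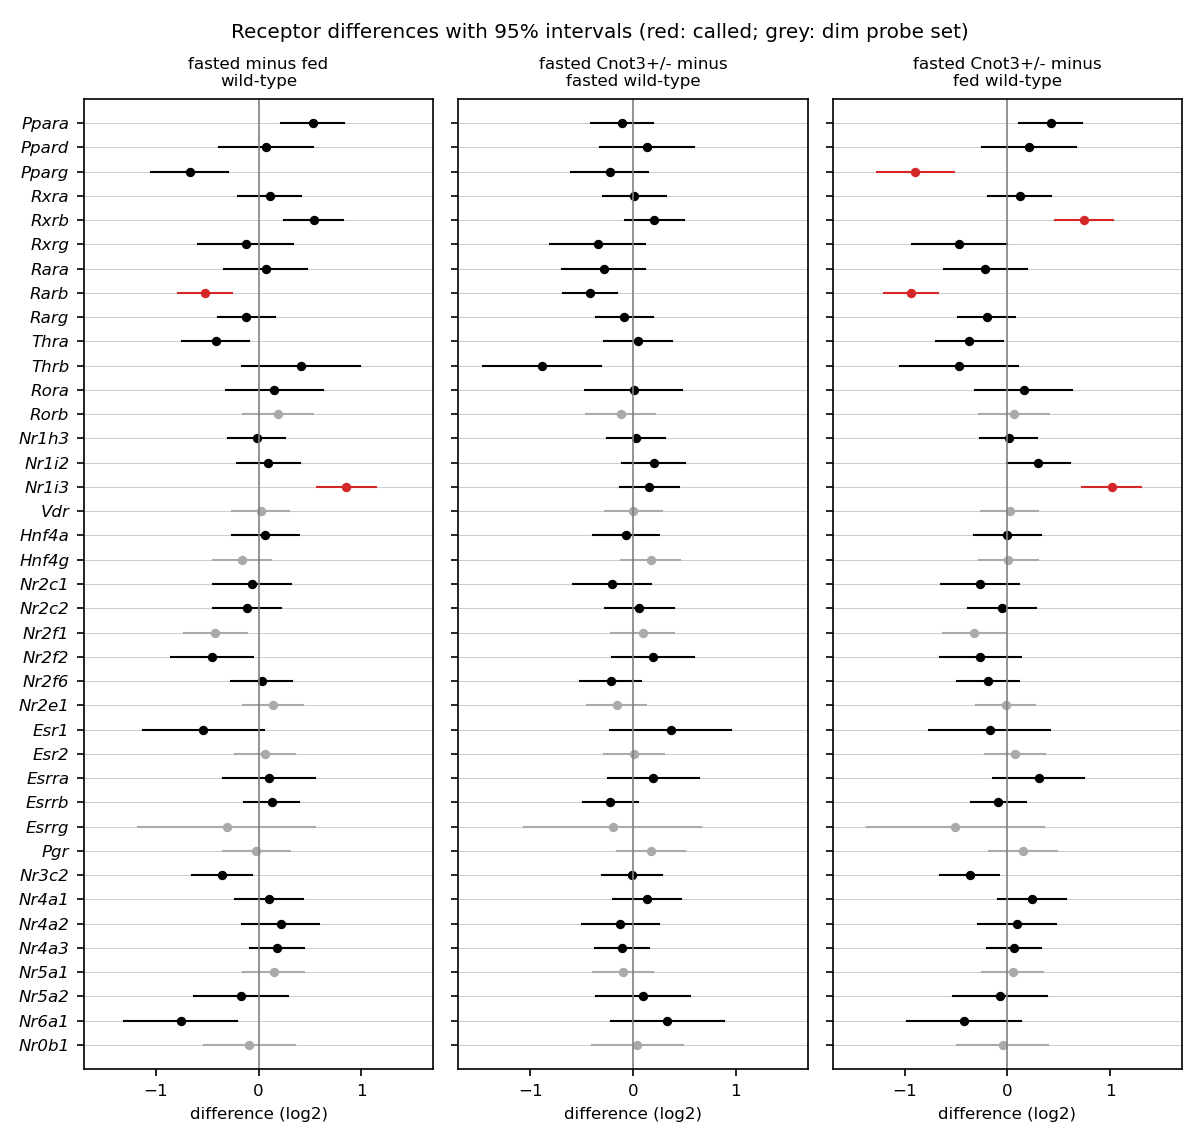
Difference (log2, x axis) of each measured receptor (rows) in the 3 comparisons, with 95% confidence intervals from limma; red marks called receptors, grey dim probe sets and black the others. Red appears for 2 receptors after fasting, for 0 between fasted genotypes and for 4 in fasted Cnot3+/- against fed wild-type liver.

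Between fasted Cnot3+/- and fasted wild-type liver, no receptor was called, and neither was any gene. The background was 0% of 18193 genes in limma with or without a mean-variance trend, with 1011 and 997 genes at an unadjusted p under 0.05. Among the receptors 2 had an unadjusted p under 0.05 (5.13%), beside 5.56% of all genes. The groups did not overlap for 13 receptors (33.3%) and for 36% of all genes. On the brightest probe sets the receptor median was 0.01, and the differences ran from -0.88 (Thrb) to 0.37 (Esr1). Other probe sets above the array medians went beyond this range. The 4 of Hnf4a were all negative, from -0.92 to -0.07, and the 5 of Nr2c1 ran from -0.20 to 0.72. With these intervals a change of modest size cannot be set apart from none: for Ppara the interval was -0.41 to 0.20, for Nr1h3 -0.25 to 0.31 and for Nr1i3 -0.13 to 0.45.

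Of the receptors that were not dim, Rarb, Thrb and Esrrb had the smallest genotype p, and they are given as values that did not pass. Rarb, at 6.01 and 6.03 in fasted wild-type and 5.57 and 5.64 in fasted Cnot3+/- liver, differed by -0.42 (SE 0.11, adjusted p = 0.863). The mean of its Cnot3+/- arrays, 5.61, was at the array medians, so the difference is a lower bound on its size. Thrb, at 7.15 and 7.61 in fasted wild-type and 6.16 and 6.82 in fasted Cnot3+/- liver, differed by -0.88 (SE 0.25, adjusted p = 0.863). The Cnot3+/- values were also below both fed values, 7.08 and 6.85, and the gap between the pair of Cnot3+/- arrays was wide. Esrrb, at 6.54 and 6.48 against 6.28 and 6.30, differed by -0.22 (SE 0.11, adjusted p = 0.865). Its probe set is of a type that can also match transcripts of other genes. The other Esrrb probe sets, with means of 5.32 and 5.25, were under the array medians and had genotype differences of -0.01 and 0.18. No coregulator and no gene of the receptor-linked lists was called between the genotypes. Of the macrophage and Kupffer cell markers 13 of 13 were higher in fasted Cnot3+/- liver, none called, with a median of 0.45, and none was at or under the array medians.

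Fasted Cnot3+/- against fed wild-type liver combines fasting and genotype, and it shares its fed arrays with the fasting comparison and its Cnot3+/- arrays with the genotype comparison. Among the 39 receptors 4 were called (10.3%), against 7.56% of all genes. The 2 that rose, Nr1i3 and Rxrb, stand beside 3.88% of all genes, and the 2 that fell, Rarb and Pparg, beside 3.68%. The groups did not overlap for 17 receptors (43.6%) and for 48% of all genes. The median was -0.02 over the receptors, with a range from -0.94 (Rarb) to 1.01 (Nr1i3).

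Nr1i3, at 10.58 and 10.58 in fed and 11.49 and 11.70 in fasted Cnot3+/- liver, was higher by 1.01 (SE 0.12, adjusted p = 0.00539), a measured 2.02-fold difference. With 1 array left out its lowest log2 difference was 0.91. Rarb was lower by 0.94 (difference -0.94, SE 0.11, adjusted p = 0.00518), again a lower bound because its Cnot3+/- mean was at the array medians. These 2 calls held when each of the 6 arrays was left out in turn. Rxrb was higher by 0.74 (SE 0.12, adjusted p = 0.0146). Its call was lost without Cnot3+/- array 1 (adjusted p = 0.0556), fed array 1 (0.0655) or fed array 2 (0.0656). Pparg read 8.11 and 8.16 in fed and 7.35 and 7.13 in fasted Cnot3+/- liver, with no overlap, and differed by -0.90 (SE 0.16, adjusted p = 0.0195). That call was lost without Cnot3+/- array 2 (adjusted p = 0.0848), fed array 1 (0.0732) or fed array 2 (0.0931). Ppara, at 12.45 and 12.38 in fasted Cnot3+/- liver, was above both fed values and did not pass (0.42, SE 0.13, adjusted p = 0.108).

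Cell type markers moved in the same comparison. Of 13 macrophage and Kupffer cell markers 7 rose, and their summed linear level was 7795 to 9221 on fed, 10535 to 11298 on fasted wild-type and 12670 to 17964 on fasted Cnot3+/- arrays. Of 12 stellate and fibroblast markers 1 rose and 4 fell. Their part in the receptor results was not tested. Of the receptor-linked lists, 10 of 15 PPAR alpha targets rose and 0 fell, and the retinoic acid list again held 1 fall, Cyp26a1 (-3.02, adjusted p = 0.0104).

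Ordered from fed through fasted wild-type to fasted Cnot3+/- liver, 3 of 39 receptors (7.69%) moved in 1 direction with no overlap between any groups: Nr1i3 and Rxrb upwards and Rarb downwards. The same held for 1328 of 18193 genes (7.3%), so the share among receptors was near that of all genes.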

How the data were processed

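Liver RNA was measured on 6 Affymetrix arrays, 3 groups of 2. The authors deposited log2 levels, for which the submitters' processing notes name RMA without a version, and these were used without further normalisation (array medians 5.59 to 5.64). Of 45101 probe sets 34945 name a single gene, and the brightest over the 6 arrays stood for each of 18193 genes. limma 3.58.1 on R 4.3.3 fitted 3 group means in 1 model, with moderated statistics (3 residual and 4.24 prior degrees of freedom) and p-values adjusted over all genes by Benjamini-Hochberg. SE is the moderated standard error; intervals are 95% intervals. p-values measure the spread between these arrays only.

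The receptors and gene lists were chosen with earlier results of these data known. Receptors called in any comparison, the 3 not dim receptors with the smallest genotype p, Cnot3 and Ppargc1a, and up to 3 genes a list by fasting p are named. Alternatives changed the probe set choice, filter, normalisation, spread model, arrays in the fit, left-out array and replicate block. The procedure was tested on simulated data. Figures used matplotlib 3.10.9 on Python 3.11.15.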

Additional observations from a re-analysis of the deposited data

How the results depend on the processing

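Of 1707 receptor differences under 15 alternatives, 1682 kept their side of the threshold, 20 lost a call and 5 gained one. Where either fit made a call, 0 changed sign. Signs were not compared for differences called in neither fit, and some of these did change sign. The fasting difference of Ppard, for example, was 0.07 in the main fit and -0.20 without fed array 1. After fasting the number of receptors called was 1 with arrays centred on the brighter genes, 1 with only the 2 groups compared in the fit, 1 without probe sets that can match several transcripts (which leave out the Nr1i3 probe set), and 0 to 1 with 1 array left out. With the label's replicate number as a block it was 4 (Nr1i3, Rarb, Rxrb at adjusted p = 0.0482 and Nr6a1 at 0.0213), and 1206 genes were called; between genotypes the block called 0 genes, and against fed liver 1708. The labels state no pairing, and the difference between arrays 2 and 1 correlated across genes at 0.454 between the fasted groups, 0.045 between the wild-type groups and -0.009 between fed and Cnot3+/-. Rarb after fasting was not called with a mean-variance trend either (adjusted p = 0.0587), while Rxrb was with the mean over probe sets (0.0416). Probe sets of a receptor often differed in sign. Of 17 receptors with over 1 probe set above the array medians, 8 had 1 sign in every such probe set for fasting. That number was 7 for genotype and 10 for fasted Cnot3+/- against fed liver.

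In fasted Cnot3+/- against fed liver 2 receptors were called without probe sets that can match several transcripts, and 2 to 4 with 1 array left out. The former setting leaves out the only probe sets of Nr1i3 and Pparg, so these 2 receptors were not tested in it. All genes called there numbered 857 with only the groups compared in the fit and 597 to 929 with 1 array left out. The range over left-out arrays was 137 to 1033 genes for fasting and 0 to 2 genes and 0 receptors for genotype. The receptor medians with 1 array left out ran from -0.03 to 0.03 for fasting, -0.02 to 0.01 for genotype and -0.06 to 0.01 against fed liver. With 2 arrays a group, the spread estimate limits every call, and the cause of the changes was not tested. Levels near the array medians, such as Rarb in Cnot3+/- liver, give only bounds.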
